A study of Mus musculus with 27 samples.

Results

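The protein-coding genes of fetal hematopoietic progenitor cells (HPC) were sorted into 4 classes by the peaks of 2 histone mark lists. A gene counted as holding a mark when at least 1 peak of its list overlapped the gene body or the 5 kb on either side of it by 1 bp or more. The first list was H3K4me1. The second is titled H3K27me3 by the submitters but carries H3K27ac as its mark label, and is called the second K27 set here. Of 21631 coding genes on 20 chromosomes, 18000 held a peak of at least 1 of the lists. The progenitors were sorted from B6 mice at E16.5, an embryonic day, and the labels give neither the source organ nor the surface markers of the sort. The H3K4me1 list pools 3 libraries and the second K27 list pools 2. The same ages and strain apply to the fetal hematopoietic stem cells (HSC) used for comparison, and adult HPC came from B6 mice of 8 weeks. The assay was ChIPmentation, in which antibody-bound chromatin is tagged with the transposase Tn5.

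H3K4me1 is the monomethyl mark of enhancers and of the flanks of promoters, and it lies at both active and poised elements. H3K27me3 is placed by Polycomb repressive complex 2 (PRC2) and read by PRC1, and it covers genes that a cell lineage keeps off, above all the regulators of other organs. H3K27ac marks active enhancers and promoters and sits on the same residue as H3K27me3, so the same histone tail cannot carry both.

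The labelled marks were set beside gene lists. All 25 genes of blood stem cell identity held H3K4me1 and 23 of them held fetal HPC H3K27ac. H3K4me1 was also held by all 18 endothelial and all 14 B cell genes, and H3K27ac by 15 of the endothelial genes. These counts therefore cannot check the cell type. All 75 listed transcription factors of other organs held a peak of the second K27 set, and 4 of these 75 held H3K27ac. The list consists of textbook Polycomb targets and does not stand for all such factors. Among 40 housekeeping genes, all held H3K4me1 and H3K27ac, and 2 held a peak of the second K27 set. Over all coding genes, 76.7% held H3K4me1, 26.2% the second K27 set and 61.5% H3K27ac. Each list pools its libraries, so there are no values per sample, no spread between replicates and no test, and the 95% Wilson intervals given cover counting error only. The read depth is unknown, and a gene without a peak does not thereby lack the mark.

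Genes with H3K4me1 only formed the largest class, with 12324 genes or 57.0% of the total (interval 56.3% to 57.6%). Both marks were found at 4272 genes, 19.7% (19.2% to 20.3%). The second K27 set alone was found at 1404 genes, 6.49% (6.17% to 6.83%), and neither list at 3631 genes, 16.8% (16.3% to 17.3%). In bulk cells, both marks at a gene can lie on the same chromosome copy or in different cells, and a mark in few cells cannot be told apart from a weak mark in all. The lists differ in length, with 177299 H3K4me1 peaks covering 200.2 Mb and 54339 peaks of the second K27 set covering 41.3 Mb. They also differ in strength, with 80.5% of H3K4me1 peaks but 13.1% of the second K27 set at a −log10 q of 5 or more. At that threshold for both lists, 1770 genes held both and 475 the second K27 set alone. With the H3K4me1 list shortened to its strongest 54339 peaks, these classes held 2706 and 2970 genes, and with the strongest 20000 peaks of each list 865 and 2934.

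Genes with both marks were the longest, with a median window of 48240.5 bp against 29638 bp for H3K4me1 only, 19345.5 bp for the second K27 set only and 13965 bp for neither. In 5 equal bins of window length, the share with both rose from 8.18% in the shortest bin, through 14.9%, 16.1% and 19.9%, to 39.7% in the longest. The share with neither fell along the same bins from 44.1% to 2.57%. The second K27 set alone was most frequent in the shortest bin, at 11.6%, and lay between 4.60% and 6.24% in the others. The median window over all genes was 27329 bp.

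**Figure D1:**
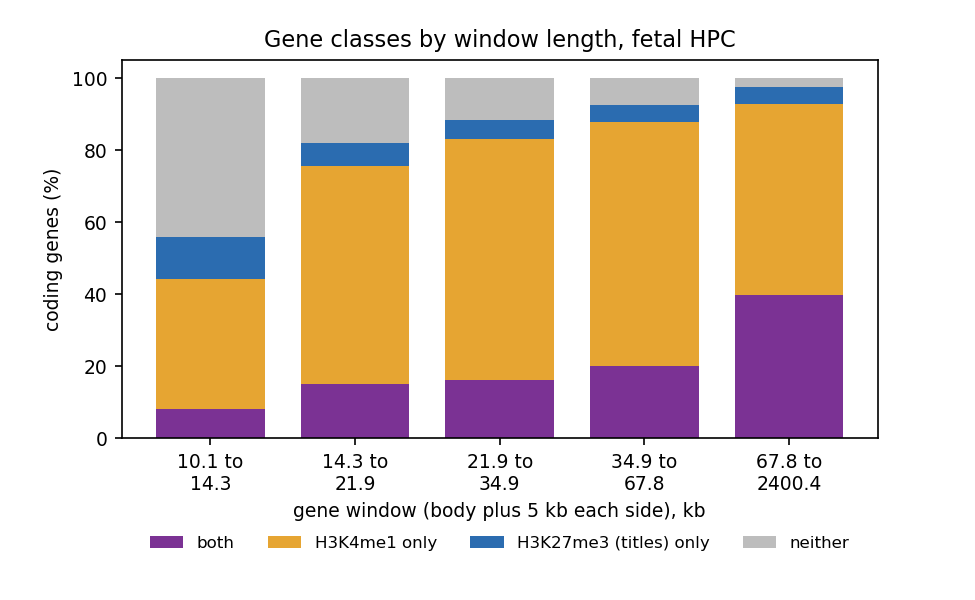
Share of coding genes (y axis, percent) in each class for 5 equal bins of window length (x axis, kb), fetal HPC. Genes with both marks make up 8.18% of the shortest and 39.7% of the longest windows, and genes with neither fall from 44.1% to 2.57%.

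By class medians, a gene with both marks was more thinly covered by each than a gene with 1 of them, but its window was longer. Its median H3K4me1 density was 9.21 peaks per 100 kb, against 19.7 in genes with H3K4me1 only, and H3K4me1 peaks covered a median 6.67% of the window against 20.3%. The second K27 set reached a median of 5.48 peaks per 100 kb in genes with both and 9.15 where it stood alone. Its peaks covered 3.66% and 5.96% of the window. A class needs at least 1 peak, which by itself gives short windows a high density, and density was not compared within length bins. A gene with both held a median of 4 H3K4me1 peaks and 3 of the second K27 set, and 1292 of the 4272 genes (30.2%) rested on 1 peak of the second K27 set. At least 1 peak of that set with a −log10 q of 5 or more lay at 1864 genes with both (43.6%) and at 381 genes with the set alone (27.1%), against 10.4% of all coding genes.

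Pooled over all window lengths, the presence of H3K4me1 went with a small difference in the second K27 set. It was found at 25.7% of genes with H3K4me1 (25.1% to 26.4%) and at 27.9% of genes without (26.7% to 29.1%). Within each length bin the share was lower among genes with H3K4me1, and the difference was larger in all but the shortest bin. There it was 18.5% against 20.8%. In the following bins it was 19.7% against 25.6%, 19.3% against 31.2% and 22.7% against 37.8%, and in the longest 42.8% against 65.0%. The number of H3K4me1 peaks did not order the genes evenly. The second K27 set lay at 44.1% of genes with 1 H3K4me1 peak and 29.4% of those with 2 to 4. It lay at 20.05% with 5 to 9, 21.9% with 10 to 19 and 24.6% with 20 or more. In the same order the median windows were 23124, 22397, 28873, 58379 and 143668 bp. These shares were not compared within length bins. H3K27ac separated the genes more. Genes with H3K4me1 and no H3K27ac held the second K27 set in 54.5% of cases (52.9% to 56.1%), and genes with both H3K4me1 and H3K27ac in 17.8% (17.2% to 18.5%). In the shortest bin the share was 7.73% with and 24.9% without H3K27ac, and in the longest 36.6% and 78.3%.

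The listed transcription factors of other organs, which are textbook Polycomb targets, fell almost wholly into the class with both marks. Of the 75 listed, 72 held both, 3 held the second K27 set only (Lhx3, Neurog1 and Sox3), and 0 held H3K4me1 only or neither, against 19.7% with both over all genes. In 70 of the 72, an H3K4me1 peak and a peak of the second K27 set overlapped directly. Their windows were short, with a median of 15528 bp, and they held a median of 5 H3K4me1 peaks and 7 of the second K27 set. Pax3, which directs neural crest and muscle precursors (chr1:78101267-78197136, GRCm38), held 10 H3K4me1 peaks and 47 of the second K27 set, which covered 53.9% of its window. Pax2 of the kidney held 7 and 40, Tbx5 of the heart and forelimb 8 and 31, and Gata4 of the heart 6 and 24. Pax6, the eye regulator, held 16 and 17, near equality. All 75 also held the second K27 set in adult HPC. The H3K4me1 at these genes was weak for its list: with that list shortened to its strongest 54339 peaks 26 of the 75 held both marks, and with the strongest 20000 peaks of each list 2 did. All 75 held the second K27 set with the strongest 20000 peaks of each list, and the other setting leaves that list unchanged. With the gene body alone 70 of the 75 held it, and 71 held a peak of it at a −log10 q of 5 or more.

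Over all coding genes 19.7% held both marks, 57.0% H3K4me1 only, 6.49% the second K27 set only and 61.5% H3K27ac. By family, all 9 Pax, 14 Nkx and 6 Dlx factors held both marks. So did 11 of 12 LIM homeobox factors and 11 of 12 factors of the Irx group and the sine oculis homeobox group. Lmx1a, a LIM homeobox factor of dopamine neurons, led them with 9 H3K4me1 peaks and 46 of the second K27 set. Among 18 neural bHLH factors 12 held both and 5 the second K27 set only, and 0 of the 18 held H3K27ac. With the shortened H3K4me1 list 6 Pax, 6 Nkx, 3 Dlx, 10 LIM homeobox and 6 neural bHLH factors held both, and 3 of the Irx and sine oculis group. With the strongest 20000 peaks of each list these counts were 0, 2, 1, 3, 0 and 0. Median windows ranged from 12642.5 bp for the neural bHLH factors to 65049 bp for the Pax factors. The Fox family divided: 21 of 44 (47.7%) held both and 18 (40.9%) held H3K4me1 only, the latter below the 57.0% of all genes. On the side with both stood Foxa1, Foxa2 and Foxc1, factors of endoderm and mesoderm, with 8, 6 and 6 peaks of the second K27 set. On the side with H3K4me1 only stood Foxp1, Foxo1 and Foxo3, factors of blood and many other cells, with 190, 28 and 36 H3K4me1 peaks. With the shortened H3K4me1 list 6 Fox factors held both. Of 19 Sox factors 11 held both (5 with the shortened list), and 2 of these, Sox5 and Sox6, were dominated by H3K4me1 with 94 and 66 peaks against 4 and 7.

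**Figure D2:**
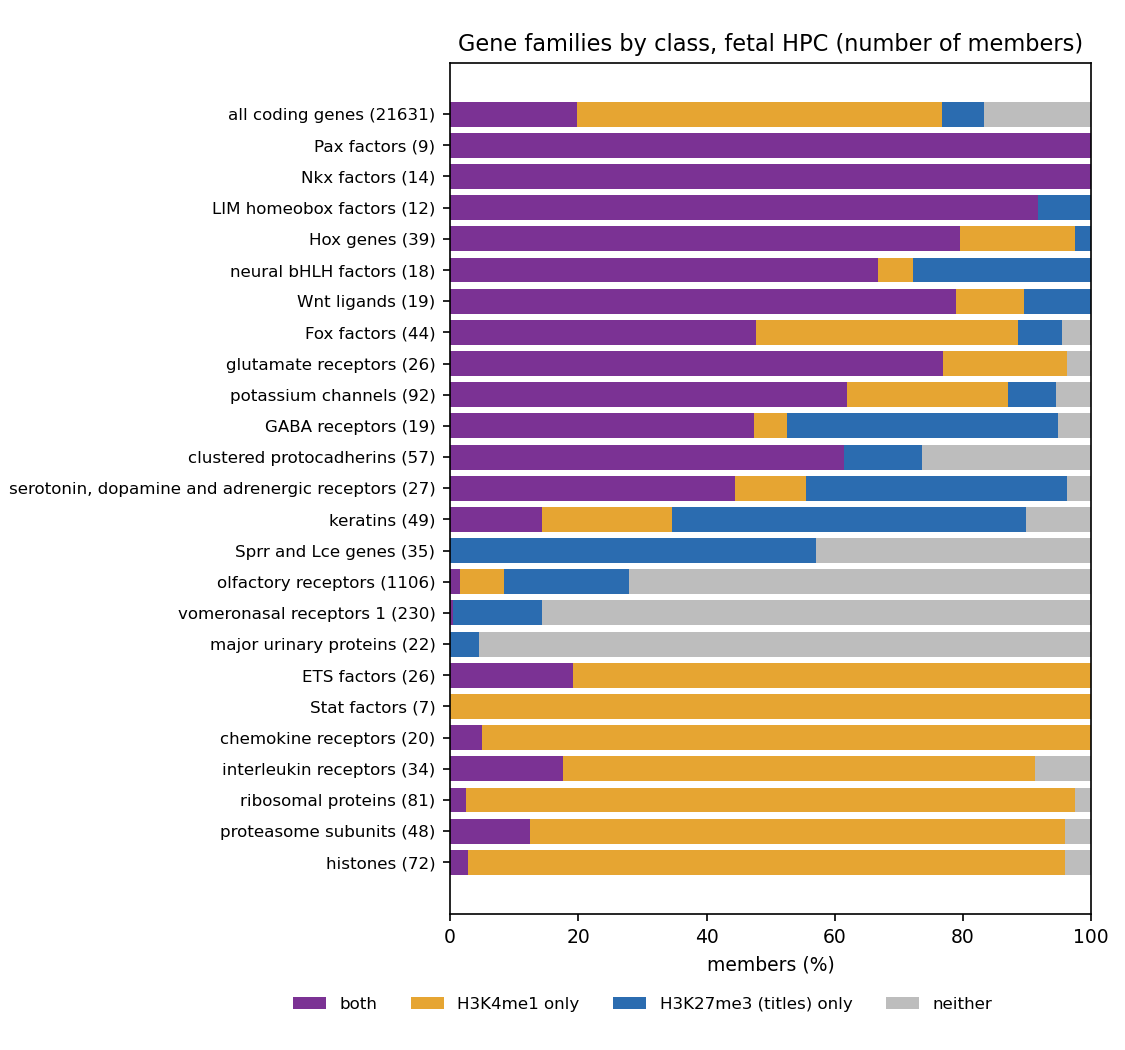
Share of the members (x axis, percent) of 24 gene families and of all coding genes in each class, with the number of members in parentheses and the second K27 set named as in the titles. Pax and Nkx factors lie wholly in the class with both marks, Stat factors wholly and ribosomal proteins almost wholly in H3K4me1 only, and vomeronasal receptors and major urinary proteins mostly in neither.

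The Hox genes, which set position along the body axis, were split within their clusters. Of 39 Hox genes 31 held both marks, 7 held H3K4me1 only and 1, Hoxc13, held the second K27 set only. Over all coding genes these shares were 19.7%, 57.0% and 6.49%. With or without H3K4me1, 26.2% of all coding genes held the second K27 set, and 61.5% held H3K27ac. With the shortened H3K4me1 list 14 of the 39 held both, and with the gene body alone as the window 17 did. All 9 genes of the Hoxc cluster (chr15:102921131-103036856) and all 9 of the Hoxd cluster (chr2:74668225-74765142) held the second K27 set, and 0 of these 18 held H3K27ac. Their windows overlap, so these calls rest on 49 and 37 distinct peaks of the second K27 set. In the Hoxa cluster on chromosome 6, 6 of 11 genes held it, on 16 distinct peaks, and in the Hoxb cluster (chr11:96194316-96368254) 8 of 10, on 23.

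From Hoxa2 to Hoxa13 the second K27 set lay at both ends and not in the middle. Hoxa2 held 3 of its peaks, which covered 12.4% of the window. Hoxa3 held 1, outside its body. Hoxa4, Hoxa5, Hoxa6, Hoxa7 and Hoxa9 held 0, with 8, 8, 8, 3 and 3 H3K4me1 peaks. At the far end Hoxa10 held 4, Hoxa11 held 8 and Hoxa13 held 4, and the covered share of the window rose from 33.7% to 72.2% and 75.5%. H3K27ac was found at Hoxa3, Hoxa5, Hoxa6, Hoxa7, Hoxa9 and Hoxa10, with 6, 1, 4, 4, 1 and 2 peaks, and not at Hoxa2, Hoxa4, Hoxa11 or Hoxa13. Hoxa3 and Hoxa10 thus held both K27 lists, and Hoxa4 held neither of them. Hoxa9 is a driver of blood progenitor growth. In Hoxb the genes without the second K27 set were Hoxb3 and Hoxb4, the latter known for expanding blood stem cells, with 6 and 3 H3K27ac peaks. Adult HPC showed the second K27 set at 5 Hoxa genes, with Hoxa3 to Hoxa9 free of it, and at 7 Hoxb genes. In adult HPC 21.4% of all coding genes held that set.

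**Figure D3:**
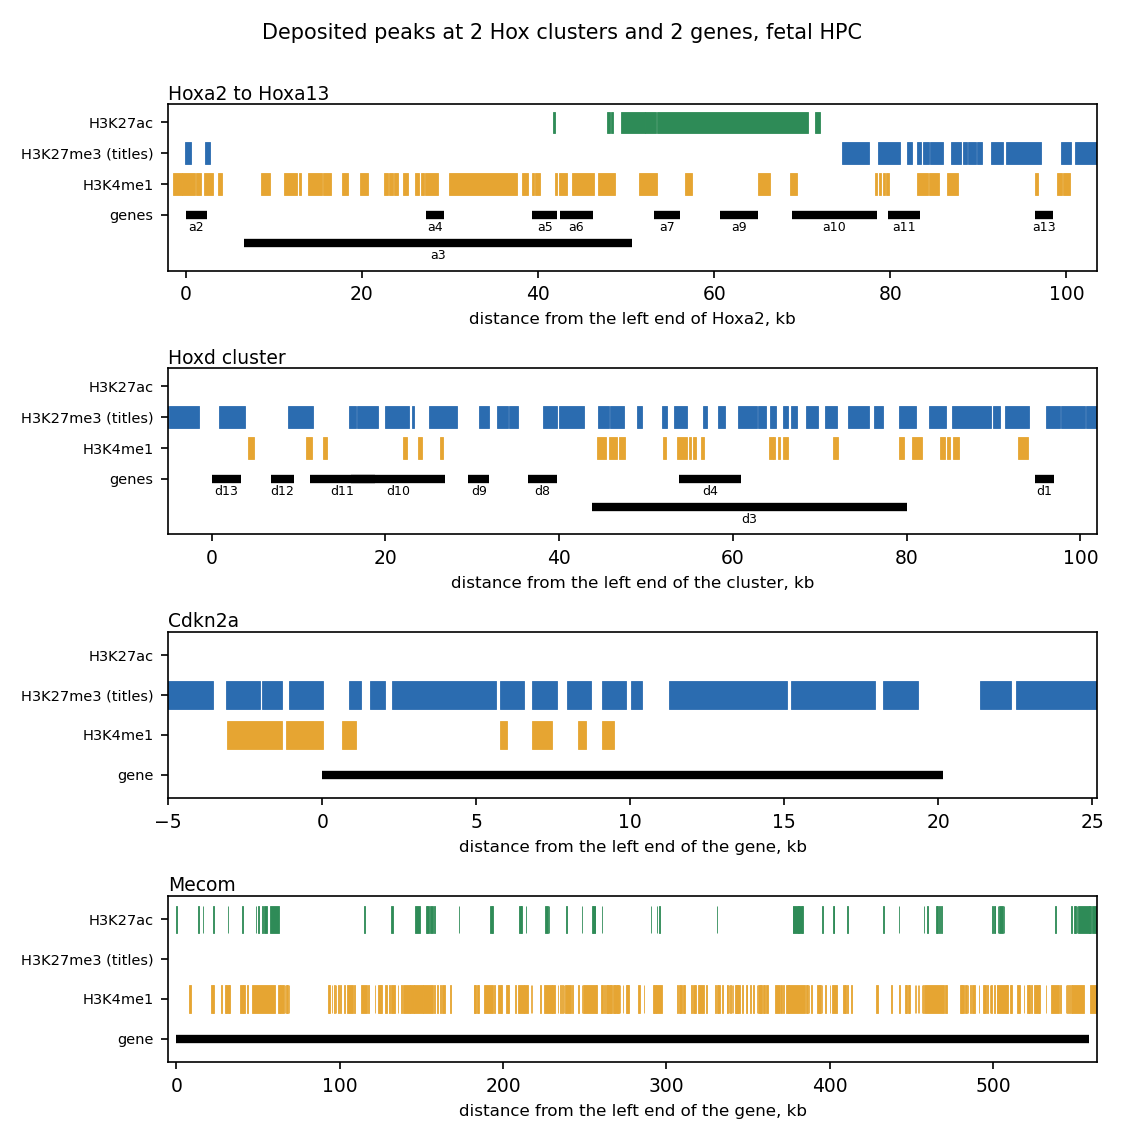
Deposited fetal HPC peaks (boxes) from Hoxa2 to Hoxa13, along the Hoxd cluster and along Cdkn2a and Mecom (x axis, kb from the left end), with genes as black bars. In Hoxa the second K27 set, named as in the titles, leaves out Hoxa4 to Hoxa9, and H3K27ac lies from Hoxa5 to Hoxa10. The second K27 set has a peak in the window of every Hoxd gene, overlaps H3K4me1 at Cdkn2a and has no peak at Mecom.

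Genes of blood stem cell identity stood largely in the class with H3K4me1 only, which holds 57.0% of all genes. Of 25 genes of blood stem cell identity, 20 held H3K4me1 only and 5 held both, a share with both close to the 19.7% of all genes. Mecom, a zinc finger factor needed by blood stem cells (chr3:29951296-30509759), held the most H3K4me1 peaks of any gene without the second K27 set, 211, with 69 H3K27ac peaks. Mllt3 held 111 H3K4me1 peaks, Runx1 held 79 and Meis1 held 35, each with 0 of the second K27 set. Those with both included Erg (40 H3K4me1 peaks and 4 of the second K27 set), Prdm16 (61 and 2), Gata2 (9 and 1) and Nkx2-3 (5 and 1). Of these 4, Erg alone had a peak of the second K27 set at a −log10 q of 5 or more. By family, 7 of 7 Stat factors, 21 of 26 ETS factors and 6 of 8 Ikaros and Runx factors held H3K4me1 only. Gata factors went the other way, with 5 of 6 in both and 1 in H3K4me1 only. Etv6, an ETS repressor needed by adult blood stem cells, held 49 H3K4me1 and 81 H3K27ac peaks.

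**Figure D4:**
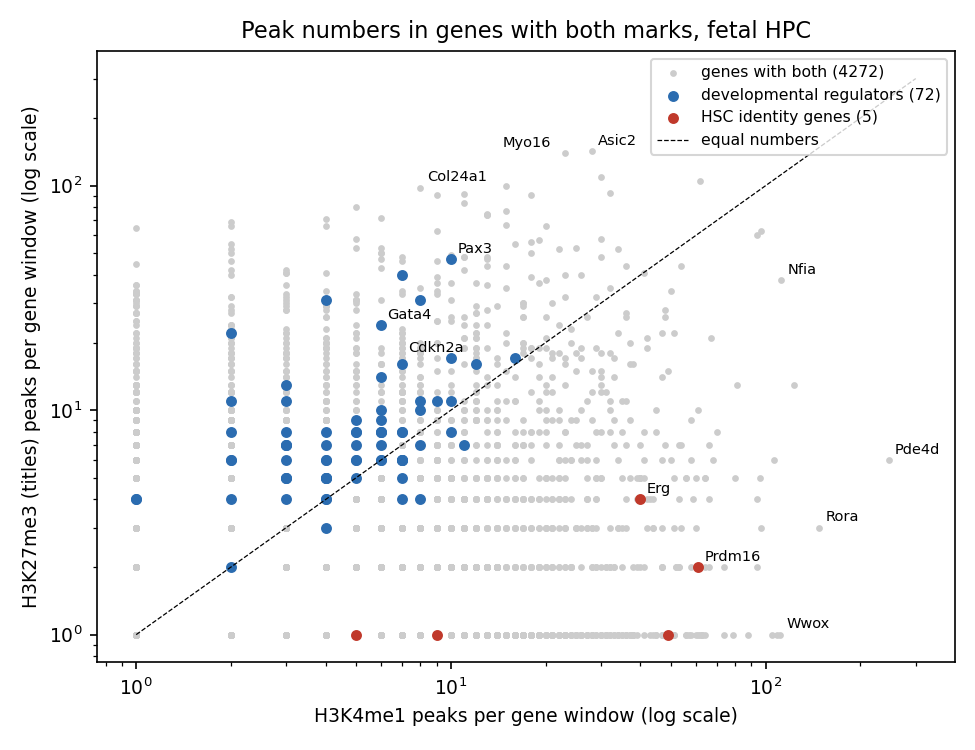
H3K4me1 peaks (x axis, log scale) against peaks of the second K27 set (y axis, log scale) per window in the 4272 genes with both. Most developmental regulators (blue) lie on or above the line of equal numbers, such as Pax3 at 10 and 47, and the 5 blood stem cell genes (red) lie below it, such as Prdm16 at 61 and 2.

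Genes of the mature blood lineages were spread over the classes, of which H3K4me1 only holds 57.0%, both 19.7% and the second K27 set only 6.49% of all genes. Of 24 granulocyte and monocyte genes 17 held H3K4me1 only, 3 held both and 3 the second K27 set only. The last were S100a8 and S100a9, the calprotectin subunits of neutrophils, with 2 and 4 peaks, and the neutrophil protease Ctsg with 1. Of these 7 peaks 1, at S100a9, touched a gene body. With the gene body alone 1 of the 24 genes held the second K27 set, in place of 6. Cebpa, the master factor of granulocytes, held 5 H3K4me1 peaks and 2 of the second K27 set. Of 24 red cell and platelet genes 17 held H3K4me1 only and 5 held both. Ank1, ankyrin of the red cell membrane, held 12 and 17, and its partner spectrin Sptb 18 and 7. The adult alpha globins Hba-a1 and Hba-a2 held 1 H3K4me1 peak each and 2 and 3 of the second K27 set, and the 2 windows share peaks and near-identical sequence. These peaks lay in the flanks, and with the gene body alone 0 of 10 globins held the second K27 set. The beta globins Hbb-bs and Hbb-bt held 2 and 3 H3K4me1 peaks and 0 of the second K27 set.

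Among 18 early lymphoid genes 14 held H3K4me1 only and 4 held both, the latter 22.2% against 19.7% of all genes. Ikzf3, an Ikaros family factor of later lymphocytes, held 5 H3K4me1 peaks and 11 of the second K27 set, whereas Ikzf1, the family member of early progenitors, held 29 and 0. Of 14 B cell genes 11 held H3K4me1 only and 3 both, and Pax5, the B cell commitment factor, held 7 and 20. Ebf1, which acts beside Pax5, held 37 and 9. Among 18 T and NK cell genes 7 held both, led by Bcl11b, the T cell commitment factor, with 4 and 19, and 4 did with the shortened H3K4me1 list. The genes Cd3d, Cd3e and Cd3g, subunits of the T cell receptor complex, held 3, 7 and 5 peaks of the second K27 set, and their windows share peaks. These lineage factors had many peaks at a stronger threshold: 7 for Pax5, 6 for Bcl11b and 4 for Ikzf3 at a −log10 q of 5 or more.

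Immune receptor families differed in H3K4me1. Against 57.0% of all genes, 19 of 20 chemokine receptors held H3K4me1 only, as did 11 of 12 Toll-like receptors, 27 of 33 C-type lectins and 25 of 34 interleukin receptors. Of 29 NK receptors of the Klr family 16 held H3K4me1 only and 10 held neither list. These are 55.2% and 34.5%, against 57.0% and 16.8% of all genes. Of the ligands, 36 chemokines, 16 (44.4%) held H3K4me1 only, 8 (22.2%) both and 6 (16.7%) the second K27 set only. Over all genes these shares were 57.0%, 19.7% and 6.49%, so the share with both was close to that of all genes. Cxcl12, the stromal ligand that holds stem cells in marrow, held 2 H3K4me1 peaks and 6 of the second K27 set, and its receptor Cxcr4 held 6 and 0. Of 28 interferon and antigen presentation genes 25 held H3K4me1 only. The 3 with both were Nlrc5 (6 and 5) and Ciita (9 and 2), the activators of the MHC class I and class II genes, and H2-Eb1 (5 and 1).

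Markers of other cells that a fetal sort could hold were spread over the classes. Over all genes 19.7% held both, 57.0% H3K4me1 only, 6.49% the second K27 set only and 16.8% neither. Among 21 hepatocyte genes 6 held both, 8 H3K4me1 only, 2 the second K27 set only and 5 neither. Among 14 macrophage genes these counts were 5, 8, 0 and 1, among 18 endothelial genes 6, 12, 0 and 0, and among 18 stromal genes 10, 6, 2 and 0. H3K27ac was found at 11 hepatocyte, 7 macrophage, 15 endothelial and 5 stromal genes, and the part of such cells in the results was not tested. Among 20 neuronal genes 16 held both and 4 the second K27 set only, so all 20 held that set. Their median window was 66243 bp. With the shortened H3K4me1 list 4 hepatocyte, 1 macrophage, 6 endothelial, 5 stromal and 8 neuronal genes held both.

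The writers and readers of the marks were mostly in the class with H3K4me1 only, which holds 57.0% of all genes. Of 12 PRC2 genes 11 held H3K4me1 only, including the methyltransferases Ezh1 and Ezh2 with 7 and 18 peaks, and Epop, an accessory subunit, held 4 and 3. Of 21 PRC1 genes 16 held H3K4me1 only and 5 held both, 23.8% against 19.7% of all genes. The 5 included Cbx2 (5 and 3) and Cbx8 (9 and 6), which are neighbouring chromodomain genes, with Bmi1 (7 and 4) and Pcgf1 (2 and 3), both ring finger subunits. All 5 also held the second K27 set in adult HPC. Of 18 enzymes that place or remove H3K4 or H3K27 methylation 17 held H3K4me1 only, and the demethylase Kdm6b held 11 and 1.

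Most drivers of the cell cycle held H3K4me1 only, and the inhibitors were divided. Over all genes 57.0% held H3K4me1 only, 19.7% held both and 61.5% held H3K27ac. Of 27 drivers 25 held H3K4me1 only, and the exceptions Cdk4 and Bub1 held 1 peak of the second K27 set each. Cdk6, a kinase of progenitor division, held 66 H3K4me1 peaks and 0. Of 11 inhibitors, a small set, 4 held both and 7 held H3K4me1 only. Cdkn2a, which encodes p16 and p19 (chr4:89274473-89294619), held 7 H3K4me1 peaks and 17 of the second K27 set, and the latter covered 77.7% of its window. Its neighbour Cdkn2b held 2 and 6, with 81.9% covered. Cdkn2c held 5 and 2, and Cdkn1c 5 and 1. H3K27ac was not called at any of these 4, while all 7 other inhibitors held it, including Cdkn1a with 3 peaks and Cdkn1b with 4.

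Families of developmental signalling differed in their share with both, which is 19.7% over all genes. Of 19 Wnt ligands 15 held both and 2, Wnt3a and Wnt9a, held the second K27 set only, with 14 and 4 peaks. Of 22 Fgf ligands 14 held both, led by Fgf12 with 18 and 50. With the shortened H3K4me1 list these counts were 10 and 9. Of 21 Bmp and Gdf ligands 10 held both and 7 H3K4me1 only, of 22 Eph receptors and ephrins 10 and 10, and of 29 semaphorins and plexins 7 and 20. Of 9 Notch ligands and receptors 7 held H3K4me1 only, with 16 and 33 H3K4me1 peaks at the receptors Notch1 and Notch2. The 2 with both were the ligands Dll1 (7 and 3) and Dll3 (5 and 4). Among 11 genes of the fetal stem cell programme 6 held both and 5 H3K4me1 only. Lin28b, the RNA-binding regulator of fetal blood, held 17 and 4, and Hmga2 held 35 and 0. Of 22 imprinted genes 10 held both, 7 H3K4me1 only and 5 the second K27 set only, led by Zdbf2 with 9 and 34. An imprinted gene can carry different marks on its parental copies, and the lists do not separate the copies.

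Promoter sequences were set beside the peaks for 6 genes, chosen after their values were seen, to show a stretch with both marks, with H3K4me1 alone and with the second K27 set alone. Each is the 250 bases before an annotated start on the gene's strand, from RefSeq GRCm38.p6, with CG dinucleotides in capitals. Cdkn2c, Dll1 and Mllt3 have 2 listed promoters each, of which 1 is shown. Cdkn2c (chr4:109665373-109665622, minus strand) and the Notch ligand Dll1 (chr17:15376933-15377182, minus strand) lay wholly under a peak of each list. The stretch of Hand2, a heart and limb factor (chr8:57320733-57320982, plus strand), lay under a peak of the second K27 set and touched an H3K4me1 peak. Mllt3 (chr4:87806324-87806573, minus strand) and Gfi1b, a red cell and platelet repressor (chr2:28621983-28622232, minus strand), lay under H3K4me1 alone. Vmn1r235, a pheromone receptor (chr17:21260177-21260426, plus strand), lay under the second K27 set alone.
Cdkn2c: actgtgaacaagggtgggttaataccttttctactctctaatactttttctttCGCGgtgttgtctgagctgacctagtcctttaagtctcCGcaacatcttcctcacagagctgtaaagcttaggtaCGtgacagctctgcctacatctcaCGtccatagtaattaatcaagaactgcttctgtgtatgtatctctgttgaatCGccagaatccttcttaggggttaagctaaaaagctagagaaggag
Dll1: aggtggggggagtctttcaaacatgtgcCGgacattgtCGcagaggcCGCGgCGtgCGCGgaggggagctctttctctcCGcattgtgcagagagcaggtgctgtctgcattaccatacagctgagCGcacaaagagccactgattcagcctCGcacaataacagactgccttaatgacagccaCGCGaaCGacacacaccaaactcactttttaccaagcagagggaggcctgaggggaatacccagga
Hand2: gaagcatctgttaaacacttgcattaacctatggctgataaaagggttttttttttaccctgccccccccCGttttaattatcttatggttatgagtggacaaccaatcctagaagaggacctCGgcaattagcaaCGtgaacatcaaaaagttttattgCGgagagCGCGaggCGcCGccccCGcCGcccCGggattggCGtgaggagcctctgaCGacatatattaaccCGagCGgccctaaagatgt
Mllt3: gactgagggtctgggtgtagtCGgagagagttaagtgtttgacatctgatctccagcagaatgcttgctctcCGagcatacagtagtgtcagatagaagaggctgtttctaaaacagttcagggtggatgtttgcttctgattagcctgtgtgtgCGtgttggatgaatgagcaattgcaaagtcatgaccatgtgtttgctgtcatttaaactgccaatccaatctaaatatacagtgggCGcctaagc
Gfi1b: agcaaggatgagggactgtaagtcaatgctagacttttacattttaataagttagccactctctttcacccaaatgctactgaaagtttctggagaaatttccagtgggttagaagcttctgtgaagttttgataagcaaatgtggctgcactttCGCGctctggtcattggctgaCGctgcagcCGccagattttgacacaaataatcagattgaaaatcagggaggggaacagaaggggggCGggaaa
Vmn1r235: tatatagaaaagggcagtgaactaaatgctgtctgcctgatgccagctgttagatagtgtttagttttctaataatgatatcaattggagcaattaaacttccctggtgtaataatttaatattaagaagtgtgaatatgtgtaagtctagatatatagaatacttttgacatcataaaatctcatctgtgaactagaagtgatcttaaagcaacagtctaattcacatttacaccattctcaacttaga
The stretches of Cdkn2c, Dll1 and Hand2 held 6, 13 and 15 CG dinucleotides, those of Mllt3 and Gfi1b held 4 and 5, and that of Vmn1r235 held 0. Over 17274 coding genes with a promoter entry, the median was 10 CG in 250 bases, the middle range 3 to 19, and 92.9% held at least 1. The fold of the peak of the second K27 set was 6.04 at Cdkn2c, 3.71 at Dll1 and Hand2 and 3.22 at Vmn1r235, as the authors give it. The fold of the H3K4me1 peak was 6.95 at Mllt3 and 5.72 at Gfi1b, and 3.62, 2.87 and 2.91 at Cdkn2c, Dll1 and Hand2. Composition by class was not compared, since promoter entries matched 75.8% of the genes with both marks and 78.9% of those with the second K27 set only.

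The genes with the most peaks of the second K27 set among genes with both had windows longer than the class median of 48240.5 bp. Asic2, an acid-sensing ion channel of neurons (chr11:80880163-81968396), held 28 H3K4me1 peaks and 143 of the second K27 set. Myo16, an unconventional myosin of the brain, held 23 and 140, the junction scaffold Magi1 30 and 109, the postsynaptic scaffold Dlg2 62 and 105, and the receptor phosphatase Ptprg 15 and 100. Col24a1, a fibrillar collagen, held 8 and 98, which covered 47.2% of its window against 8.62% at Asic2. Of 26 glutamate receptors 20 held both, with a median window of 308228 bp, and of 92 potassium channels, with a median of 44546 bp, 57 held both, against 19.7% of all genes. Of 19 GABA receptors (median window 98575 bp) 9 held both and 8 the second K27 set only, led by Gabra5 with 46 peaks of that set and 0 of H3K4me1. Of 27 serotonin, dopamine and adrenergic receptors 12 held both and 11 the second K27 set only, with a median window of 27141 bp. With the shortened H3K4me1 list 11 glutamate receptors, 33 potassium channels, 1 GABA receptor and 5 of these 27 receptors held both, and with the strongest 20000 peaks of each list 6, 12, 0 and 2. The serotonin receptor Htr4, with 59, held the most peaks of the second K27 set of any gene without H3K4me1.

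At the other end of the class with both stood genes with much H3K4me1 and few peaks of the second K27 set. Pde4d, a cAMP phosphodiesterase, held 246 H3K4me1 peaks and 6 of the second K27 set, and the nuclear receptor Rora 148 and 3. The oxidoreductase Wwox held 111 and 1, the deacetylase Hdac9 109 and 1, and Lrmda, a pigment cell gene, 123 and 13. Nfia, a nuclear factor of glia and red cells, held 112 and 38. In adult HPC Rora held 11 peaks of the second K27 set, and Pde4d, Wwox, Hdac9, Lrmda and Nfia held 0. Among all genes with both, 1439 (33.7%) had more peaks of the second K27 set than of H3K4me1, 2423 (56.7%) had fewer and 410 had equal numbers. H3K27ac was found at 31.7% of the first and 70.4% of the second. The adult second K27 set was found at 88.3% and 53.2% of them.

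The distance between the marks varied among genes with both. Peaks of the lists overlapped in 2173 genes, 50.9% (49.4% to 52.4%), and lay less than 1 kb apart in a further 384, 1 to 10 kb apart in 1162 and 10 kb or more apart in 553. Without an overlap the median gap was 3672 bp. The share with an overlap was 62.4% in the shortest length bin and 57.4%, 42.4%, 45.3% and 52.2% in the following bins. At a −log10 q of 5 or more it was 45.8%, with the shortened H3K4me1 list 24.6%, and with the strongest 20000 peaks of each list 5.90%. Counted by peaks, 3278 of 22475 peaks of the second K27 set in these windows (14.6%) touched an H3K4me1 peak. The second K27 set lay in the flanks and not in the body of 1070 genes with both (25.05%), where a neighbouring gene can be the one covered.

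Many genes in clusters of receptor and barrier genes lay in the classes without H3K4me1, which hold 3631 genes with neither list and 1404 with the second K27 set only. Over all coding genes 16.8% held neither list, 6.49% the second K27 set only, 57.0% H3K4me1 only and 19.7% both. Of 1106 olfactory receptors 797 held neither list, 216 held the second K27 set only, 76 H3K4me1 only and 17 both. With or without H3K4me1, the second K27 set lay at 21.1% of olfactory receptors, against 26.2% of all genes. Their median window was 10950 bp, and in the shortest length bin 44.1% of genes held neither and 11.6% the second K27 set only. At a −log10 q of 5 or more, 41 olfactory receptors (3.71%) held the second K27 set, against 10.4% of all genes. Of 230 vomeronasal receptors of type 1, 197 held neither and 32 the second K27 set only. The epidermal families leaned to the second K27 set: 27 of 49 keratins, 24 of 53 keratin-associated proteins and 20 of 35 Sprr and Lce genes of the cornified skin layer held it alone, against 6.49% of all genes. Many of these calls rest on the flanks. With the gene body alone as the window, 23 keratins, 5 keratin-associated proteins and 2 Sprr and Lce genes held the second K27 set, and 48 olfactory receptors in place of 233. Few of these peaks were strong, since 8 keratins, 10 keratin-associated proteins and 0 Sprr and Lce genes held a peak at a −log10 q of 5 or more. In adult HPC 41 keratins held the second K27 set, and 1 of the Sprr and Lce genes did. Major urinary proteins (21 of 22), Pramel and Rhox genes (74 of 77) and defensins (56 of 70) held neither. How reads from near-identical copies in these families were placed is not given in the sources used here.

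Clustered protocadherins, adhesion proteins that give neurons their identity, held both in 35 of 57 genes, the second K27 set only in 7 and neither in 15. Over all genes these shares were 19.7%, 6.49% and 16.8%. The 42 genes with the second K27 set drew on 70 distinct peaks of it, and the 35 with H3K4me1 on 13 distinct H3K4me1 peaks, because these genes share long overlapping windows. Along the chromosomes, 64.7% of genes with H3K4me1 only and 63.3% of genes with neither lay in runs of 5 or more neighbours of the same class. For genes with both and with the second K27 set only these shares were 10.1% and 13.5%. In the same order these classes hold 57.0%, 16.8%, 19.7% and 6.49% of all genes. A larger class forms more long runs by its size alone, and neighbouring windows can share peaks. The run shares therefore do not rank the classes by clustering. The longest run with H3K4me1 only held 64 genes from Myl2 to Atp6v0a2 on chromosome 5. The longest with neither held 104, mostly vomeronasal receptors, on chromosome 7. With the second K27 set only, the longest was 23 keratin-associated and keratin genes from Krtap4-13 to Krt13 on chromosome 11. With both it was 21 gamma protocadherins.

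Genes that every cell uses were mostly in H3K4me1 only, against 57.0% of all genes. This held for 77 of 81 ribosomal proteins, 73 of 78 mitochondrial ribosomal proteins, 45 of 49 NADH dehydrogenase subunits, 13 of 13 RNA polymerase II subunits, 67 of 72 histones, 46 of 52 translation initiation factors and 40 of 48 proteasome subunits, of which 6 held both. Genes with H3K4me1 only and the most peaks after Mecom were Foxp1 with 190, the repressor scaffold Gse1 with 154, the forkhead factor Foxn3 with 146, the Notch coactivator Maml3 with 142 and the chromatin remodeller Arid1b with 139. Peaks covered 73.5% of the Arid1b window. The strongest H3K4me1 peak lay at Ptafr, the receptor of platelet-activating factor (chr4:132564257-132568877), with a fold of 15.3. The strongest peaks of the second K27 set lay at Gpr176, an orphan receptor (chr2:118369527-118372906), and at Pard3, a cell polarity scaffold (chr8:127058260-127063536), with folds of 8.86 and 8.77. The longest windows with neither list were those of Pcdh11x, a protocadherin of the X chromosome, at 630385 bp and Skint5, a skin immune gene, at 531613 bp.

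The X chromosome differed from the autosomes in its classes. Of 966 X-linked genes 49 held both (5.07%), 370 H3K4me1 only (38.3%), 86 the second K27 set only (8.90%) and 461 neither (47.7%). On the autosomes the shares were 20.4%, 57.8%, 6.38% and 15.3%. On the X, a run of 51 neighbouring genes with neither list lay among the multicopy Btbd35f and Spin2 genes. The share of the X that is present in 1 copy depends on the sex of the embryos, which was not used here.

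Lists that took no part in sorting the genes followed the classes. Fetal HPC H3K27ac was found at 86.8% of genes with H3K4me1 only (86.2% to 87.4%), 54.3% with both (52.8% to 55.8%), 7.12% with the second K27 set only (5.89% to 8.59%) and 5.23% with neither (4.55% to 6.01%). In the shortest length bin it was found at 24.3% of genes with both and 72.7% with H3K4me1 only, and in the longest at 72.9% and 96.4%. H3K4me1 of fetal HSC, found at 77.6% of all genes, was present at 97.6% of genes with both and at 19.8% of those with the second K27 set only. Adult HPC H3K4me1, found at 78.0% of all genes, was present at 96.0% and 26.0%. The second K27 set of adult HPC, found at 21.4% of all genes, was present at 66.1% of genes with both, 71.2% with the fetal set only, 4.11% with H3K4me1 only and 8.34% with neither.

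**Figure D5:**
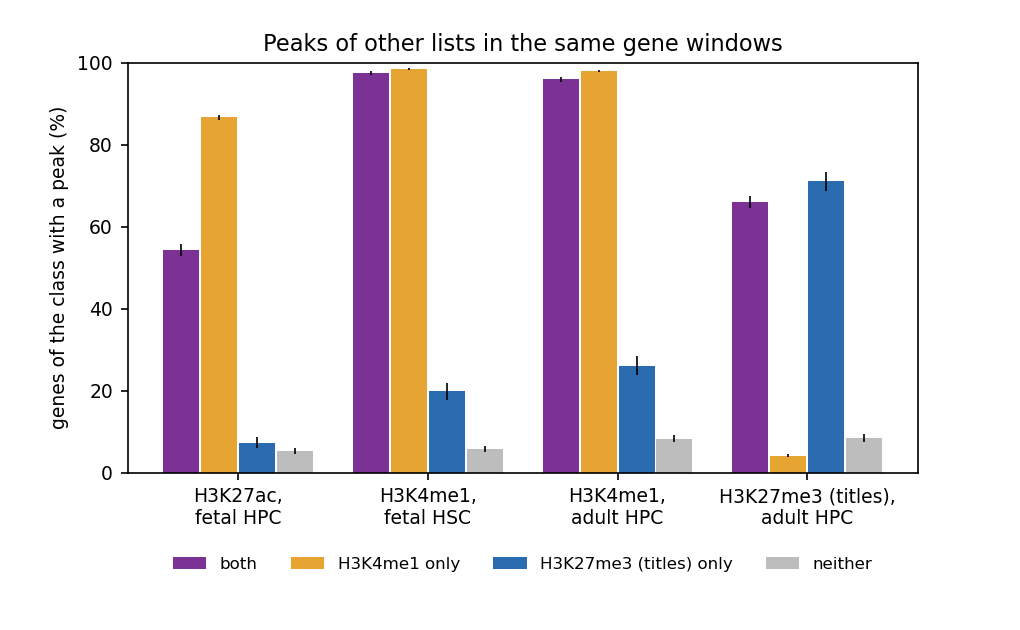
Share of the genes of each fetal HPC class (y axis, percent, with 95% Wilson intervals) that hold a peak of 4 further lists. H3K27ac is found at 86.8% of genes with H3K4me1 only and 54.3% with both, and the adult second K27 set at 66.1% with both and 4.11% with H3K4me1 only.

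With the adult HPC lists sorted by the same rule, 94.4% of genes with H3K4me1 only in the fetus and 85.0% with neither stayed in their class. Of genes with both, 63.3% held both in the adult and 32.8% held H3K4me1 only. Of genes with the second K27 set only, 49.8% held it alone in the adult, 21.4% held both and 24.2% held neither. The Sprr and Lce genes are an example of loss, from 20 to 1, and the developmental regulators of persistence, at 75 of 75. The adult second K27 list had a similar length, 54292 peaks, but 1.06% of its peaks at a −log10 q of 5 or more, so a gene that left the set by age cannot be told apart from a gene near the calling limit.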

How the data were processed

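ChIPmentation peak lists of sorted fetal and adult blood progenitors and stem cells were used, 6 of the 8 deposited, each pooled over the libraries of its group. Per the submitters' processing notes, Novoalign and MACS2 were used with the genome mm10 (GRCm38). No version, filter or use of inputs is stated. For each peak the authors give a fold over background, a −log10 p, a −log10 q and a score that restates the −log10 p, and these were used within a list only. Read depth is unknown.

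Peaks were counted per window, the coding gene body plus 5 kb on each side, in the RefSeq table of GRCm38.p6 with python 3.11.15, pandas 2.3.3 and scipy 1.17.1. Y-linked and mitochondrial genes were left out. The counting was checked by a self-test with known answers. Members, 70 symbol-pattern families and 23 gene lists were chosen with earlier results of these data known. Of 522 list names 3 were not matched. Named genes were those with the most peaks in each class, list or family, and others, among them the Hox genes and the printed promoters, were picked with their values known. Strand is absent from the gene table, so distance to the start was not analysed here. Each group has 1 pooled list, so no test was run. Alternatives were the window, the peak threshold, the list length, the assignment of peaks and the number of peaks needed. Values of a few list members are not reported here.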

Additional observations from a re-analysis of the deposited data

How the results depend on the processing

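No paired analysis was possible because each group has 1 pooled list, and no library was left out for the same reason. Counts are genes per class, and shares are those of a class with H3K27ac or, for overlap, of genes with both whose peaks overlap. With the gene body alone 2924 genes held both and 5217 neither, in place of 4272 and 3631. In that setting the overlap share was 54.9% and H3K27ac lay at 46.6% of genes with both and 83.0% with H3K4me1 only. With 1 kb of flank these were 57.1%, 46.7% and 84.2%, and 4.36% for neither. With 10 kb they were 46.9%, 62.8% and 89.4%, and 8.63% for the second K27 set only. At a −log10 q of 5 or more, 1770 genes held both and 475 the second K27 set only, the overlap was 45.8%, and H3K27ac lay at 48.4% (both), 83.5% (H3K4me1 only) and 6.69% (neither). At 2 or more the first 2 of these were 52.3% and 85.3%. With the strongest 20000 peaks of each list the classes both, H3K4me1 only, second K27 set only and neither held 865, 7341, 2934 and 10491 genes, with H3K27ac at 85.4%, 95.95%, 28.6% and 44.6%, and the overlap was 5.90%. With the H3K4me1 list shortened to the length of the other, 2706 genes held both and 2970 the second K27 set only, the overlap was 24.6%, and H3K27ac lay at 70.5%, 92.4%, 17.2% and 20.6% of the classes. With each peak given to its nearest gene only, H3K27ac lay at 52.7%, 87.7%, 10.6% and 10.97%. With at least 2 peaks needed, 2525 genes held both, the overlap was 63.8%, and H3K27ac lay at 87.9% (H3K4me1 only), 11.6% (second K27 set only) and 12.1% (neither). In each of these settings the H3K27ac share was highest with H3K4me1 only and next with both. The order of the other 2 classes depended on the setting: neither lay above the second K27 set only with the strongest 20000 peaks, the shortened H3K4me1 list, the nearest gene and at least 2 peaks, and below it as reported. A peak at least 50% inside the window, merged peaks and autosomes alone moved none of the class counts or shares beyond the limits used. Those limits were 1.5 times for a count and the 95% Wilson interval for a share. There were 343 values for families, lists and named genes. Beyond those limits, 232 were lower with the strongest 20000 peaks, 135 at a −log10 q of 5 and 115 with the shortened H3K4me1 list. With at least 2 peaks needed 89 were lower, and with the gene body alone 75. The lists hold called peaks without depth, so a weak mark and an absent one cannot be told apart.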
